A study of Mus musculus with 2 samples.

Results

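Heat shock chaperones are proteins that hold, fold or rescue other proteins, and their transcripts were followed here across the cell classes of mouse bone marrow stroma. The members are 10 genes, of 25289 in the deposited table, taken by name for their known function: the inducible HSP70 genes Hspa1a and Hspa1b, the J-protein genes Dnajb1 and Dnaja1, the HSP90 gene Hsp90aa1, the HSP70 nucleotide exchange factor Hsph1, the small heat shock protein gene Hspb1, the constitutive HSC70 gene Hspa8, and the mitochondrial chaperonin genes Hspd1 and Hspe1. They were read in each authors' class of the cells that passed the authors' filter, in each library, and in the barcodes that did not pass.

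The study profiled bone marrow stromal cells one at a time by droplet barcoding (inDrops) in 2 samples of 1 group, Stroma1 (libraries 1.1 and 1.2) and Stroma2 (libraries 2.1, 2.2 and 2.3). Both came from C56BL/6 mice aged 8 to 16 weeks. Femurs, tibiae and pelvis were crushed, leftover bone fragments were digested with collagenase and dispase for 45 min at 37 C, the suspension was passed through a 100 µm strainer, and CD45-, Ter119- and CD31- cells were sorted, which removes most blood, red cell and endothelial cells. Labels do not say that the 2 samples came from separate animals, so p-values measure only how differences between groups of cells vary between these samples. That spread may be technical, and the classes were built by the authors from the same counts.

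In the cytosol, a J-protein such as Dnajb1 or Dnaja1 passes an unfolded protein to an HSP70, the HSP70 grips it while ATP is hydrolysed, an exchange factor such as Hsph1 lets it go again, and HSP90 finishes the folding of many signalling proteins. Small heat shock proteins such as Hspb1 bind unfolding proteins without ATP and keep them from clumping. When unfolded protein accumulates, the transcription factor HSF1 forms a trimer, binds repeats of the pentamer nGAAn in alternating directions (the heat shock element) and switches on the inducible members, while Hspa8 runs in nearly all cells without stress. Hspd1 (HSP60) and Hspe1 (HSP10) form a folding chamber in the mitochondrion.

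On GRCm38, Hspa1a and Hspa1b lie side by side on the minus strand of chromosome 17, at 34969190-34972156 and 34956436-34959238, with 9951 bases between them. Their longest open reading frames are identical at 1919 of 1929 bases (99.5%), but the last 300 bases of their transcripts at 62.3%, so reads from the coding part could not be told apart between the pair and their separate values are uncertain. Hspd1 (minus strand) and Hspe1 (plus strand) start back to back on chromosome 1, and the spans overlap by 112 bases. Dnajb1 is on chromosome 8 at 83608193-83612653, Dnaja1 on chromosome 4 at 40722150-40737149, Hsp90aa1 on chromosome 12 at 110690605-110702728, Hspa8 on chromosome 9 at 40800984-40810087, and Hspb1 and Hsph1 on chromosome 5 at 135887919-135889563 and 149614287-149636376. Exons of Hspa1a overlap Gm20481 on the other strand, and exons of Dnaja1 overlap Smu1 and Gm6297, also on the other strand. Whether the authors counted by strand is not given in the sources used here.

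Promoter sequences of the members were read for motifs they share, and a link between motifs and levels was not tested. RefSeq promoters (250 bases before to 50 after each start, GRCm38.p6) were in the table for 8 of the 10 members, and Hsp90aa1 and Hspa8 had none there. A 3-unit heat shock element was searched as GAANNTTC running on into NNGAA, or TTCNNGAA running on into NNTTC, which are each other's reverse complement, so that both strands are covered. Its 2-unit forms were GAANNTTC and TTCNNGAA, each its own reverse complement and each contained in the longer element. The 3-unit element was in 198 of 32851 promoters in the table (0.603%) and in those of 3 of the 8 members, Hspd1, Hspe1 and Hsph1. A 2-unit form was in 4946 promoters (15.1%) and in 7 of the 8 members, all but Dnajb1. A member counts here if any of its promoters matched, whereas the shares are per promoter. The stretches around the matches follow, 5′ to 3′ on each gene's own strand, with the matched letters in capitals:
Hspa1a: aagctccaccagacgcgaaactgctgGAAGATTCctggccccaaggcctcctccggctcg
Hspa1b: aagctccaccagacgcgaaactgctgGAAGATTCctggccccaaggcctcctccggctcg
Hspb1: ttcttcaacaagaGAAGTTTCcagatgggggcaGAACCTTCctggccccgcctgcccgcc
Dnaja1: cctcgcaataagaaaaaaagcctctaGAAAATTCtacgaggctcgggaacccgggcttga
Hspe1: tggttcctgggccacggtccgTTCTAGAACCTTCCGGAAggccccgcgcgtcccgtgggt
Hspd1: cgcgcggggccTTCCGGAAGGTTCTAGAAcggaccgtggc
Hsph1: aatgctgcagaTTCTGGAAAGTTCt

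These stretches lie at chr17:34972227-34972286 (minus strand, Hspa1a), chr17:34959309-34959368 (minus, Hspa1b), chr5:135887789-135887848 (plus, Hspb1), chr4:40722318-40722377 (plus, Dnaja1), chr1:55088038-55088097 (plus, Hspe1), chr1:55088048-55088087 (minus, Hspd1) and chr5:149636287-149636311 (minus, Hsph1, inside the transcript). The Hspa1a and Hspa1b stretches are the same letter for letter, and the pair matches at 247 of the 250 bases before the start. One run of letters serves both chaperonin genes: the Hspd1 and Hspe1 promoter windows share 285 of 300 bases, and the capitals of one are the reverse complement of those of the other. Outside the printed stretches, Hsph1 also has TTCTCGAA at positions -33 to -26 from the same start. Of the 13 promoters the table lists for the 8 members, 8 held any of these motifs, which is the count like the 15.1% of all promoters. The matches of Hspa1a with Hspa1b, and of Hspd1 with Hspe1, are not separate ones. A match is a description of these letters and says nothing of binding.

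There were 948 passing cells in Stroma1 (1658990 counts, median 1523.5 per cell) and 1899 in Stroma2 (3687913 counts, median 1324). Barcodes are not all unique to a library: 32 passing barcodes were shared by libraries 1.1 and 1.2, and 83, 104 and 74 by the pairs of Stroma2 libraries (2.1 with 2.2, 2.1 with 2.3, 2.2 with 2.3), most of them in the same class, against 2 to 4 for any pair between the samples. Results below are given with all rows. Counting each barcode once per sample gave the same number of higher and lower members per class, except in MSC and in not passing barcodes, as said there. Tests cover the 6 classes with at least 15 cells in each sample (Pre-adipocyte, MSC, Pro-osteoblast, Osteoblast progenitor, Adipocyte progenitor and Pre-osteoblast/chondrocyte). Pro-chondrocyte had only 4 and 10 cells and was not tested. The 6 classes hold from 25 to 815 cells a sample. Median counts per cell were 4422 and 4201 in Pro-osteoblast and 1160 to 2107 in the other tested classes.

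The class names were set against marker genes. In Pro-chondrocyte all 4 chondrocyte markers (Sox9, Acan, Col2a1 and Chad) were at 0 in both samples, while the 6 osteoblast markers summed to 211456 and 210157 counts per 1000000 raw counts (CPM of raw totals), beside 213574 and 213002 in Pro-osteoblast. The adipocyte markers Pparg, Lpl, Plin1 and Adipoq were not highest in Pre-adipocyte: they summed to 5425 and 4908 CPM there, with Plin1 at 0, 6220 and 5854 CPM in Adipocyte progenitor and 7335 and 7130 CPM in MSC. Like the other class names, Pre-adipocyte and Adipocyte progenitor are therefore used only as deposited. Blood markers summed to 2030 and 367 CPM in Pre-adipocyte against 0 to 393 CPM in the other tested classes, and to 0 and 427 CPM (5 counts) in Pro-chondrocyte. Leaving out 32 passing cells with no stromal, osteoblast, adipocyte or chondrocyte marker count, or with at least 3 blood or endothelial marker counts (an alternative chosen after seeing the data), gave the same 8 and 7 members higher in Pre-adipocyte and Adipocyte progenitor as reported next.

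By mean level the cytosolic chaperones were highest in Pre-adipocyte and next highest in Adipocyte progenitor, though not every step passed a test. The mitochondrial pair did not share that pattern, and most cytosolic members were lowest in Pro-osteoblast. Levels below are normalized CPM, counts per 1000000 counts of the tested genes, scaled by the trimmed mean of M-values (TMM), in Stroma1 and then Stroma2. Levels are compared within a gene only, since transcript length and 3′ capture differ between genes.

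**Figure D1:**
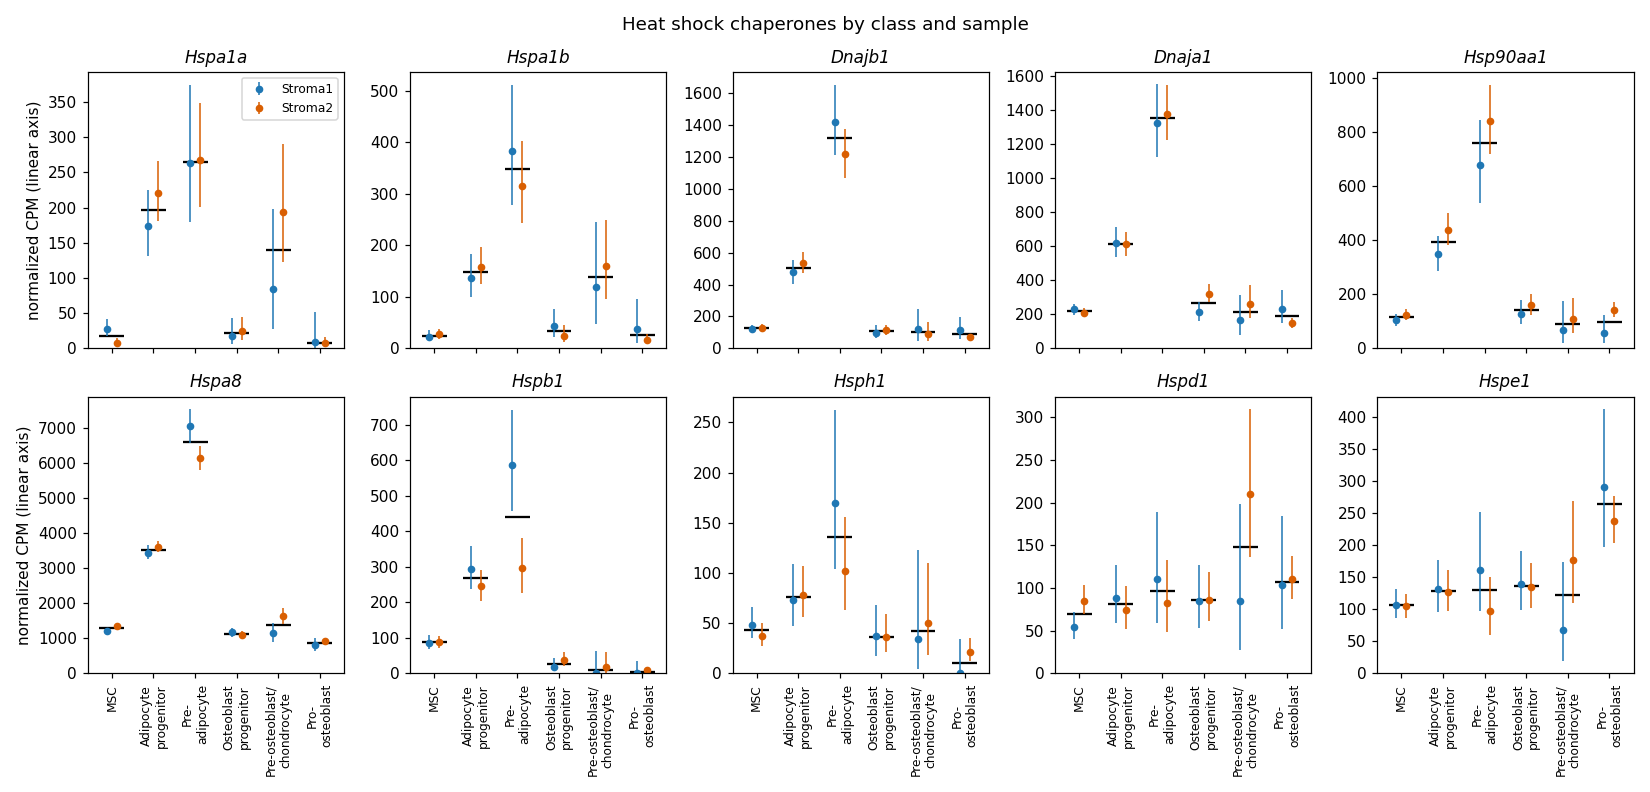
Level of each of the 10 chaperones (normalized CPM, linear axis) in each tested class, with 1 point per sample and bars for the exact 95% Poisson interval of its count. Both samples of Pre-adipocyte stand above both samples of MSC for every cytosolic member, whereas Hspd1 has no such order and Hspe1 is highest in Pro-osteoblast.

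The inducible HSP70 genes come first. Hspa1a was at 263 and 267 normalized CPM in Pre-adipocyte and 174 and 220 in Adipocyte progenitor, against 28.3 and 8.35 in MSC, 18.4 and 25 in Osteoblast progenitor and 9.37 and 7.05 in Pro-osteoblast. Hspa1b was at 382 and 316 normalized CPM in Pre-adipocyte, 137 and 158 in Adipocyte progenitor, 22.4 and 27.6 in MSC, 44.1 and 25 in Osteoblast progenitor and 37.5 and 15.5 in Pro-osteoblast. For both genes Pre-adipocyte and Adipocyte progenitor lay wholly above those 3 classes, without overlap. For this and the other orders of samples given below, the share of all genes with the same order was not counted. A single Pre-adipocyte cell of library 2.1, with 594 counts in all, held 13 counts of Hspa1a and 6 of Hspa1b. Its Hspa1a counts were 23.6% of those of the class in Stroma2. That cell had 49 blood marker counts and 0 of the stromal and osteoblast markers, and met the rule of the 32 cells left out above. The Hspa1a step from Adipocyte progenitor to Pre-adipocyte did not pass its test, as given further on. Pre-osteoblast/chondrocyte had 85.0 and 193 for Hspa1a and 119 and 160 for Hspa1b, which overlap the values of Adipocyte progenitor. Its values rest on few cells, as given further on.

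The J-proteins deliver clients to HSP70. Dnajb1 was at 1419 and 1214 normalized CPM in Pre-adipocyte and 476 and 533 in Adipocyte progenitor, and at 70.5 to 129 in every sample of the other 4 tested classes. Dnaja1 was at 1326 and 1380 normalized CPM in Pre-adipocyte and 619 and 611 in Adipocyte progenitor, and at 149 to 322 in the other 4. The 3 ranges did not overlap for either gene, and for Dnaja1 the samples of the 4 lower classes were interleaved. For Dnajb1 both MSC samples (123 and 129) stood above those of the other 3 lower classes (70.5 to 119).

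Hsp90aa1, the inducible HSP90, was at 680 and 840 normalized CPM in Pre-adipocyte and 348 and 439 in Adipocyte progenitor, and between 56.2 (Pro-osteoblast, Stroma1) and 159 (Osteoblast progenitor, Stroma2) elsewhere. Hspa8 was at 7061 and 6149 normalized CPM in Pre-adipocyte, 3450 and 3621 in Adipocyte progenitor and 806 to 1622 in the other classes. Its order was thus that of the inducible members, with no overlap of the 2 high classes with each other or with the rest. Hsph1 was at 170 and 102 normalized CPM in Pre-adipocyte, 73.2 and 78.1 in Adipocyte progenitor, 48.3 and 37.6 in MSC and 0 and 21.1 in Pro-osteoblast. Its 2 Pre-adipocyte values differ the most between samples of any class but keep above all the others.

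Hspb1 had a wider division than the other members. It was at 586 and 296 normalized CPM in Pre-adipocyte, 293 and 244 in Adipocyte progenitor and 86.1 and 87.7 in MSC, but at 18.4 and 36.3 in Osteoblast progenitor, 0 and 16.8 in Pre-osteoblast/chondrocyte and 0 and 8.45 in Pro-osteoblast. Every sample of those last 3 classes lay below every MSC sample. In Pre-osteoblast/chondrocyte and Pro-osteoblast these levels rest on 2 and 6 counts in all, from Stroma2 alone.

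Each class was then tested against the mean of the other 5 on the log2 scale (edgeR's quasi-likelihood test on the counts summed per class and sample, with Benjamini-Hochberg adjustment over 6229 genes). For the lower classes that mean includes both Pre-adipocyte and Adipocyte progenitor, and a lower call there is relative to these as well. In Pre-adipocyte 8 of the 10 members were higher and 0 lower, where 14.5% of all tested genes were higher and 20.7% changed in either direction. The log2 differences were 3.52 (SE 0.27) for Hspb1, 3.21 (SE 0.15, 9.28-fold) for Dnajb1, 2.76 (SE 0.30) for Hspa1a, 2.75 (SE 0.25) for Hspa1b, 2.37 (SE 0.17) for Hsp90aa1, 2.34 (SE 0.13, 5.05-fold) for Dnaja1, 2.18 (SE 0.09, 4.53-fold) for Hspa8 and 1.70 (SE 0.36) for Hsph1. Adjusted p was at most 9.74e-05 (Hsph1) among the 8. With Stroma2 alone Hspb1 was at 2.84. With Stroma1 alone Hsph1 was at 3.16, which rests in part on Pro-osteoblast being at 0. Hspb1 at 5.83 with Stroma1 alone rests on 2 of the other classes being at 0. Hspd1 (-0.05, adjusted p = 0.951) and Hspe1 (-0.25, adjusted p = 0.608) did not pass. The members' median log2 difference was 2.35, beside 0.02 over all tested genes.

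In Adipocyte progenitor 7 members were higher and 0 lower (11.4% of all tested genes were higher and 15.4% changed). Hspb1 had the largest difference at 2.73 (SE 0.25, 6.65-fold), then Hspa1a at 2.26 (SE 0.26), Dnajb1 at 1.58 (SE 0.15), Hspa1b at 1.30 (SE 0.25), Hsp90aa1 at 1.23 (SE 0.16), Hspa8 at 1.10 (SE 0.10) and Dnaja1 at 0.97 (SE 0.13), on the log2 scale, all with adjusted p of 1.85e-05 or less. Hsph1 did not pass at 0.78 (adjusted p = 0.0847). The members' median was 1.17, beside 0.06 over all genes. With 1 library left out in turn the differences of the 7 called members stayed between 0.78 (Dnaja1) and 2.90 (Hspb1). Those of the 8 called in Pre-adipocyte stayed between 1.30 (Hsph1) and 3.80 (Hspb1). With Stroma1 alone, where Pre-osteoblast/chondrocyte and Pro-osteoblast are at 0 for Hspb1, this gene was at 4.67 in Adipocyte progenitor.

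Directly between the 2 classes, 5 members were higher in Pre-adipocyte than in Adipocyte progenitor and 0 lower, where 4.29% of tested genes were higher. These were Dnajb1 (log2 1.37, SE 0.17), Hspa1b (1.21, SE 0.29), Dnaja1 (1.14, SE 0.15), Hsp90aa1 (0.95, SE 0.20) and Hspa8 (0.90, SE 0.13). Hspb1 (0.65, adjusted p = 0.172), Hspa1a (0.42, adjusted p = 0.607) and Hsph1 (0.77, adjusted p = 0.371) did not pass in that pair. Adipocyte progenitor was in turn above MSC for 7 members, with 3.95% of genes higher, from log2 1.46 for Hspa8 to 3.52 for Hspa1a, and Pre-adipocyte above MSC for 8 (8.48% of genes higher).

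Below the top 2 classes the order of neighbours was mostly not resolved. For Dnajb1, Dnaja1, Hsp90aa1 and Hspa8 none of the neighbouring pairs among the 4 lower classes passed the test. For Hspa1a, Adipocyte progenitor and Pre-osteoblast/chondrocyte did not pass the test of a difference (log2 0.37, SE 0.39, adjusted p = 0.612), and the step came under them, with Pre-osteoblast/chondrocyte above Osteoblast progenitor by 2.77 (SE 0.53, adjusted p = 5.09e-05). For Hspa1b, Adipocyte progenitor and Pre-osteoblast/chondrocyte did not differ in the test either (log2 0.03, SE 0.39, adjusted p = 0.977). Its step also came under them, with Pre-osteoblast/chondrocyte above Osteoblast progenitor by 2.14 (SE 0.49, adjusted p = 0.000811). For Hsph1, Adipocyte progenitor above MSC did not pass (0.84, SE 0.36, adjusted p = 0.259). For Hspb1 the steps were Adipocyte progenitor above MSC (1.61, SE 0.25) and MSC above Osteoblast progenitor (1.55, SE 0.37, adjusted p = 0.00187). Over all 15 pairs of classes, in which 18.4% of all gene tests passed, Hspb1 passed in 12, Hspa1b and Hspa8 in 11, Dnajb1 and Dnaja1 in 10, Hspa1a and Hsp90aa1 in 9, Hsph1 in 5, Hspe1 in 4 and Hspd1 in 1.

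In MSC, the class at the start of the authors' paths, 6 members were lower and 1 higher than the mean of the other classes (20.6% of genes changed, 9.46% lower and 11.2% higher). Hspa1a was lower by a log2 difference of -1.96 (SE 0.36) and Hspa1b by -1.76 (SE 0.29). Hsp90aa1 (-0.90), Dnajb1 (-0.83), Dnaja1 (-0.82) and Hspa8 (-0.65) were lower by less, with SE of 0.10 to 0.18. Hspb1 was higher by 0.80 (SE 0.29, adjusted p = 0.0363). That last call was lost without library 1.2 (adjusted p = 0.136), without library 2.2 (0.0606), with each barcode counted once (0.0536) and with DESeq2 (0.236). The Hspb1 difference was 2.65 with Stroma1 alone, where Pre-osteoblast/chondrocyte and Pro-osteoblast are at 0. With each barcode once, Hspe1 passed as lower (-0.52, adjusted p = 0.0459). Hspa1a was at -0.96 with Stroma1 alone and -3.01 with Stroma2 alone, and Hsp90aa1 at -0.55 with Stroma1 alone. With each cell thinned to 500 counts, which left 2014 genes to test, the calls of Hspa1a (-1.59, adjusted p = 0.0534), Dnajb1 (-0.47, adjusted p = 0.219) and Hsp90aa1 (-0.26, adjusted p = 0.629) were lost. Against single classes, 0 members were higher and 1 lower in Osteoblast progenitor than in MSC. In Pro-osteoblast 1 was higher and 4 lower than in MSC. Over all 15 pairs of classes 18.4% of gene tests passed.

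In Osteoblast progenitor 4 members were lower and 0 higher (3.16% of genes were lower and 9.15% changed). Dnajb1 had a log2 difference of -1.10 (SE 0.21), Hspa8 of -0.87 (SE 0.12), Hspa1a of -1.50 (SE 0.43, adjusted p = 0.0109) and Hspa1b of -1.32 (SE 0.35, adjusted p = 0.00566). The 2 HSP70 calls rest on 16 and 23 counts in all. Hspa1a lost its call without library 1.1, 1.2 or 2.3 (adjusted p of 0.0577 to 0.0777) and Hspa1b without library 1.2 or 2.1 (0.19 and 0.106). Neither passed with cells thinned to 500 counts (adjusted p of 0.0527 and 0.297).

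In Pro-osteoblast, the tested class with the highest sum of osteoblast markers, 8 members were lower and 1 higher, in a contrast where 39.3% of all genes changed, 17.9% lower and 21.4% higher. Hspa1a (log2 -3.38, SE 0.52), Hspb1 (-3.33, SE 0.66) and Hspa1b (-2.23, SE 0.40) had the largest differences. Hsph1 (-1.67), Dnajb1 (-1.66), Dnaja1 (-1.32), Hspa8 (-1.29) and Hsp90aa1 (-0.88) followed, with SE of 0.13 to 0.45. Hspa1a and Hspb1 had 6 counts each in this class, so the size of their differences depends on few molecules. With Stroma1 alone, where Hspb1 and Hsph1 are at 0, Hspa1b was at -1.28, Dnaja1 at -0.66 and Hsp90aa1 at -1.72. With cells thinned to 500 counts Hspa1b (-2.07, adjusted p = 0.0588) and Hspb1 (adjusted p = 1) lost their calls, and Hsph1 could not be tested. The members' median was -1.49, beside 0.03 over all genes.

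Hspe1 was the one member higher in Pro-osteoblast, at 290 and 238 normalized CPM against 68.0 to 177 in all other tested classes and samples (log2 1.02, SE 0.21, adjusted p = 2.5e-05). It passed against MSC, Pre-adipocyte, Adipocyte progenitor and Osteoblast progenitor. Its direction depends on the scaling: with library totals alone in place of TMM the difference was -0.065 (adjusted p = 0.807), and the median of all genes in that contrast moved from 0.03 to -1.07. Hspd1, which folds proteins together with Hspe1, was at 103 and 110 normalized CPM in Pro-osteoblast and at 54.2 to 210 elsewhere. Its log2 difference was 0.16 (adjusted p = 0.7) under TMM. With library totals it was -0.94 and passed as lower (adjusted p = 0.00244). Relative to the median gene, both scalings leave Hspe1 above it in this class.

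**Figure D2:**
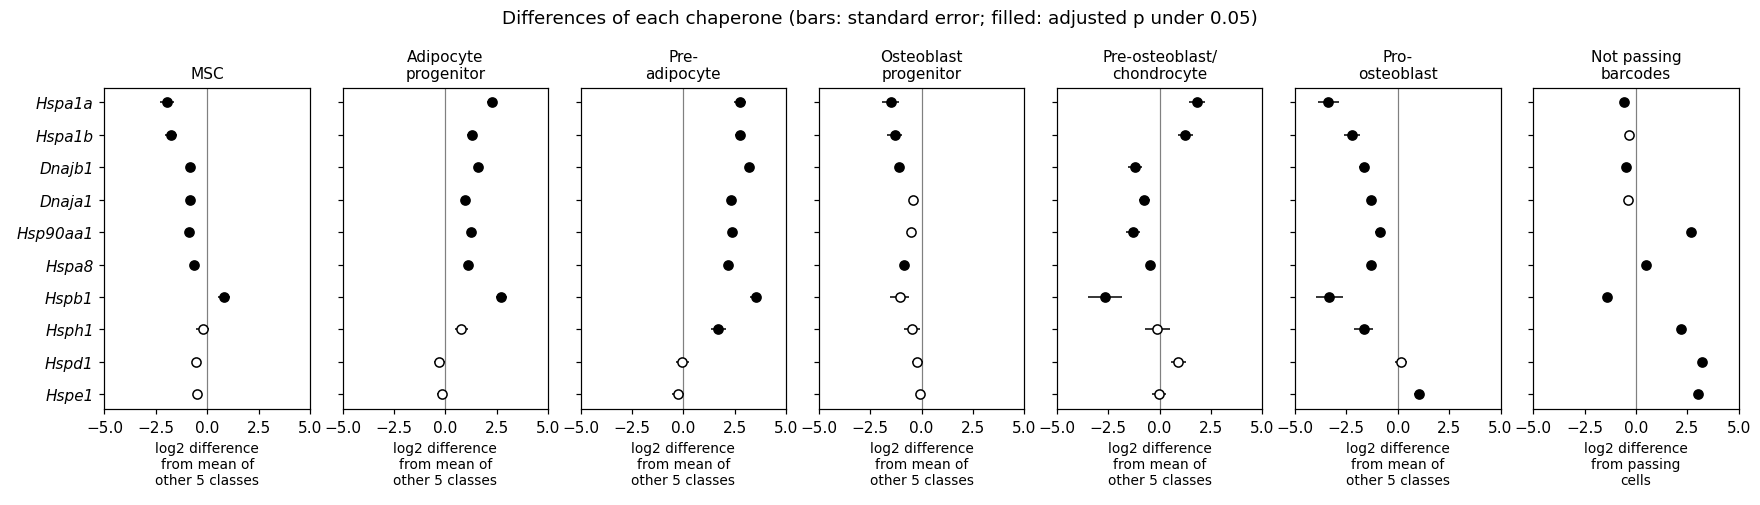
Log2 difference of each chaperone in each class from the mean of the other 5 classes, and in not passing barcodes from passing cells (points, with bars for the standard error; filled where the adjusted p was under 0.05). The 8 cytosolic members lie right of 0 in Pre-adipocyte and Adipocyte progenitor and left of 0 in Pro-osteoblast, and Hspd1 and Hspe1 stand near 0 in the former and far right of it in not passing barcodes.

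In Pre-osteoblast/chondrocyte the set was split: Hspa1a and Hspa1b were higher and 5 other members lower, where 12.2% of genes changed, 6.92% higher and 5.23% lower. Hspa1a had a log2 difference of 1.82 (SE 0.41, adjusted p = 0.000566) and Hspa1b of 1.26 (SE 0.38, adjusted p = 0.0161). Lower were Hspb1 (-2.67, SE 0.81), Hsp90aa1 (-1.29, SE 0.34), Dnajb1 (-1.20, SE 0.34), Dnaja1 (-0.74, SE 0.25) and Hspa8 (-0.47, SE 0.14), with adjusted p from 0.00428 to 0.0343. The Dnaja1 call was lost without library 1.1, 1.2 or 2.2, with DESeq2 (adjusted p = 0.0887) and with library totals (adjusted p = 0.126). The Hspa8 call was lost with library totals as well (-0.32, adjusted p = 0.126). With Stroma1 alone Dnaja1 was at -1.25, Hspa8 at -0.82, Hspa1a at 0.80 and Hspa1b at 0.67. The Hspb1 call was lost with DESeq2 (adjusted p = 0.116), and with cells thinned to 500 counts 0 of the 7 members passed (adjusted p of 0.0503 to 1). Against single lower classes the lower calls were fewer. In Pre-osteoblast/chondrocyte 3 members were higher and 1 lower than in MSC, and 2 higher and 0 lower than in Osteoblast progenitor. Over all 15 pairs of classes 18.4% of gene tests passed.

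The 2 HSP70 calls in that class rest on few cells. One cell of library 2.1, with 888 counts in all, held 10 counts of Hspa1a and 15 of Hspa1b, which is 43.5% and 78.9% of the counts of these genes in the class in Stroma2, and it had 0 counts of the stromal, osteoblast, chondrocyte, blood and endothelial markers. A cell of library 2.3 held 9 and 1. By library the class ranged from 19.3 (2.2) to 388 (2.1) normalized CPM for Hspa1a and from 24.2 (2.3) to 478 (2.1) for Hspa1b. Without library 2.1 neither passed (Hspa1a 1.39, adjusted p = 0.0756; Hspa1b 0.23, adjusted p = 0.862). Nor did they pass without the 32 cells left out by markers (1.25, adjusted p = 0.0592, and 0.10, adjusted p = 0.942). The Osteoblast progenitor call of Hspa1b was lost in that fit as well (-1.01, adjusted p = 0.0797). In Pre-osteoblast/chondrocyte Hspa1b also lost its call without library 1.2 (adjusted p = 0.129) and with no count filter (adjusted p = 0.175).

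The other genes of the pathway were counted by list. Of 12 other heat-inducible genes, 9 could be tested, and in Pre-adipocyte 4 were higher and 0 lower (median log2 0.92): the largest were Ier5 (4.26), an immediate-early gene that acts on HSF1, Dnajb4 (2.50), another J-protein, and Bag3 (2.07), a co-chaperone of HSP70. In Adipocyte progenitor 3 of the 9 were higher, Ier5 (1.97), Bag3 (0.82) and Ubb (0.44), and Cryab, a small heat shock protein gene, was lower (-3.21). Among the heat shock factor genes Hsf1, Hsf2 and Hsf4 and their partner Hsbp1, 2 of 4 genes had enough counts to test: Hsbp1, which binds HSF1 trimers, was lower in Pre-adipocyte (-0.67, adjusted p = 0.044), and Hsf1 did not pass (0.04, adjusted p = 0.991).

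Of 9 genes of HSP90 and its co-chaperones, 2 were higher in Pre-adipocyte, Fkbp5 (log2 1.27), an immunophilin of steroid receptor complexes, and the constitutive HSP90 gene Hsp90ab1 (0.99). Of 12 tested HSP70 partners 1 was higher, Hspa2 (2.95), an HSP70 best known from the testis. None of the 8 subunits of the cytosolic chaperonin TRiC and 1 of 7 other mitochondrial chaperones and proteases, Clpx (1.16), the ATPase of a matrix protease, was higher, while 0 of either list were lower. In the endoplasmic reticulum, 3 of 15 tested chaperones were higher, Dnajb9 (2.41), Hspa5 (1.87) and Herpud1 (1.14), and the collagen chaperone Serpinh1 was lower (-0.93). List medians were 0.34 for HSP90 partners, -0.24 for HSP70 partners, -0.18 for TRiC, 0.39 for the mitochondrial list and 0.06 for the endoplasmic reticulum. In Pro-osteoblast, where 21.4% of all genes were higher and 17.9% lower, 3 of 8 TRiC subunits were higher, led by Cct2 (1.57), and 2 of 7 of the mitochondrial list, Grpel1 (1.35), a partner of mitochondrial HSP70, and Hspa9 (0.70), that HSP70 itself, with 0 lower in either list. Of the endoplasmic reticulum list 3 were higher there, led by Serpinh1 (2.69), and 6 lower (median -0.36). Of the 9 other heat-inducible genes 1 was higher, Cryab (5.81), and 2 lower, among them Ier5 (-2.72). Of HSP90 and its co-chaperones 1 was higher, Cdc37 (0.80), which brings kinases to HSP90, and 2 lower, Fkbp5 (-2.66) and Hsp90ab1 (-0.38), and of the HSP70 partners 3 were higher and 0 lower. These Pro-osteoblast values are under TMM, and the shift of all genes with library totals given above (-1.07) applies to them.

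Immediate-early genes, which switch on within minutes of many stimuli, were highest in the same 2 classes as the cytosolic members. In Pre-adipocyte 22 of 22 tested were higher (median log2 3.32, led by Nr4a3 at 6.09, Nr4a1 at 4.98 and Atf3 at 4.59), in Adipocyte progenitor 22 of 22 (median 2.01), in MSC 20 of 22 were lower, in Pro-osteoblast 19 and in Osteoblast progenitor 20. Of the 22, 1 was higher and 2 lower in Pre-osteoblast/chondrocyte, where 2 members were higher and 5 lower. The 23 genes summed to 67150 and 66115 CPM of raw totals in Pre-adipocyte, 41885 and 41932 in Adipocyte progenitor, 10757 and 13088 in Pre-osteoblast/chondrocyte, 8398 and 8747 in MSC, 6915 and 8619 in Osteoblast progenitor and 2152 and 1747 in Pro-osteoblast. Ranked by that sum, the top 2 classes are those of all 8 cytosolic chaperones by mean normalized CPM. The bottom class is that of 6 of the 8 on that scale. By mean CPM of raw totals, the scale of the sum, Pro-osteoblast was lowest for all 8. Hspa1b was then at 14.5 there and 29.1 in MSC, and Hsp90aa1 at 50.8 there and 90.5 in Pre-osteoblast/chondrocyte. Over cells within a class and sample, thinned to 500 counts, the summed members and the summed immediate-early genes had a Pearson r from -0.108 (Pro-osteoblast, Stroma1, 42 cells) to 0.459 (Pre-osteoblast/chondrocyte, Stroma2, 66 cells), values that share the cell's depth and library. The share of mitochondrial counts also differed, at 2.73% and 3.11% in Pre-adipocyte against 3.74% to 7.74% in the other tested classes. The part of either in the chaperone levels was not tested.

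The share of cells with a count was read for a few members. None of the classes is known to lack these transcripts, so the part of free RNA in these shares was not measured. With each cell thinned to 500 counts, 93.9% and 87.6% of Pre-adipocyte cells had a count of Hspa8, 77% and 80.9% of Adipocyte progenitor, 43.6% and 47.6% of MSC and 21.4% and 20.7% of Pro-osteoblast (57.1% and 67.9% unthinned). Dnaja1 was seen in 50.0% and 44.1% of Pre-adipocyte and 12.9% and 9.94% of MSC cells, and Dnajb1 in 42.4% and 29.0% against 6.77% and 6.50%. Hspa1a was seen in only 9.09% and 6.90% of thinned Pre-adipocyte cells and 1.59% and 0.859% of MSC cells (22.7% and 18.6%, and 3.19% and 0.982%, before thinning). At least 1 of the 8 cytosolic members had a count in 100% and 96.6% of thinned Pre-adipocyte cells and in 31.0% and 26.6% of Pro-osteoblast cells. Between pairs of members, the median r over cells within a class and sample lay between -0.05 and 0.05, and at these sparse counts that shows neither presence nor absence of a shared level.

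The authors ranked cells along paths to adipocyte, osteoblast and chondrocyte, and each rank was cut into 3 equal bins. Along the adipocyte path Hspa8 was at 1198, 1795 and 4474 CPM of raw totals in the early, middle and late bins of Stroma1, and at 1296, 2089 and 4531 in Stroma2. Dnajb1 was at 124, 174 and 765, and at 114, 212 and 767. Hspa1a was at 20.3, 50.7 and 207, and at 6.09, 43.5 and 215. In both samples all 8 cytosolic members were highest in the late bin, and for each of these 3 genes the larger step in CPM was from middle to late. As a ratio, Hspa1a in Stroma2 rose more from early to middle, where the early bin held 3 counts. Hspd1, in contrast, was at 69.4, 56.1 and 93.9 in Stroma1 and 87.2, 108 and 76.2 in Stroma2, with no shared order.

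Along the osteoblast path the late bin had 0 and 8.61 CPM of Hspb1, 815 and 573 of Hspa8 and 11.6 and 14.9 of Hsph1, below the adipocyte late bin for each. Those 2 samples differ in makeup, since the largest class of this bin was Osteoblast progenitor in Stroma1 (62.5% of cells) and Pro-osteoblast in Stroma2 (60.3%). On the chondrocyte path Hspa1a was at 34.2 and 140 CPM in the late bin. The early bins hold nearly only MSC cells, and Adipocyte progenitor makes up 67.0% and 62.0% of the late adipocyte bin, so these bins restate the classes in finer order and are not a separate experiment.

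**Figure D3:**
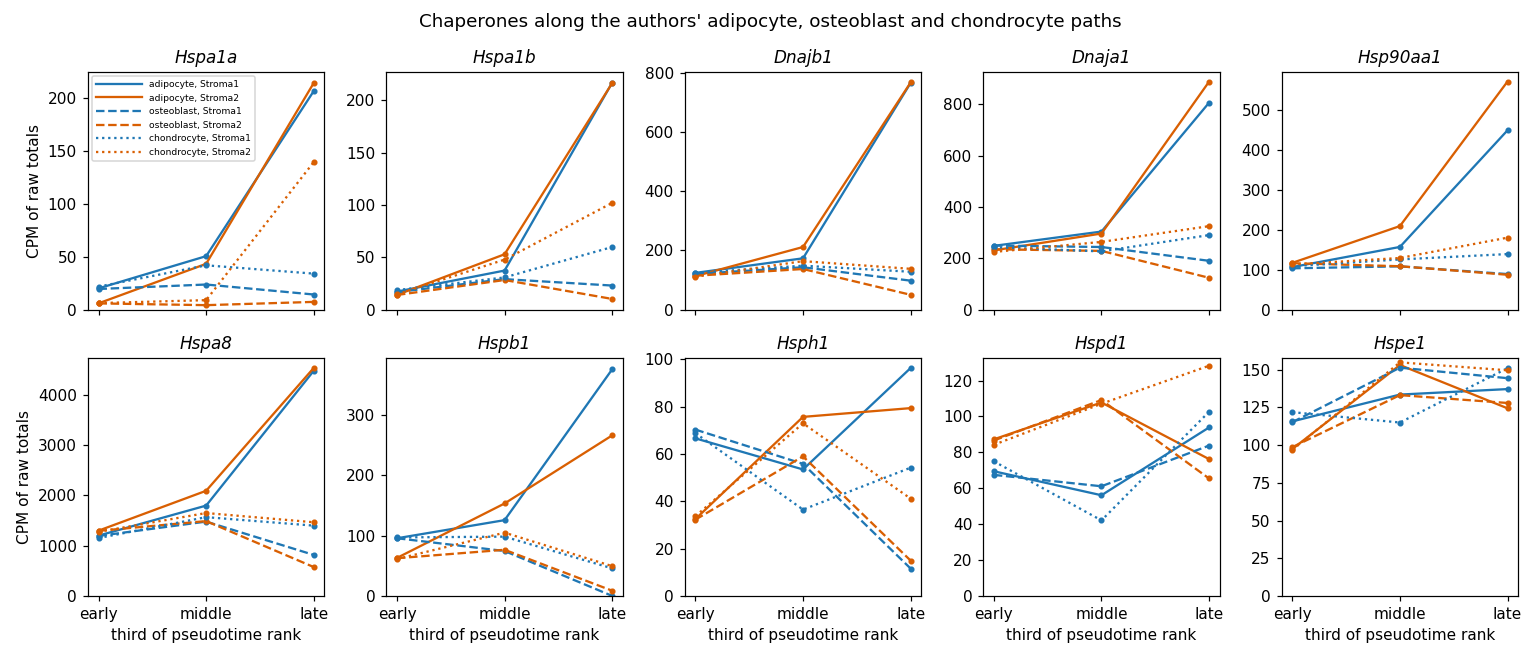
Level of each chaperone (CPM of raw totals) in the early, middle and late bin of the authors' 3 path ranks, with 1 line per path and sample. The adipocyte lines of the cytosolic members end highest in both samples, for Hspa8 at 4474 and 4531 CPM, and the lines of Hspd1 and Hspe1 cross.

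Hspa1a, Hsp90aa1 and Hspd1 were used to look for genes of like pattern over the 12 sums of class and sample, centred within sample, among 3252 genes with a mean of at least 50 CPM. Closest to Hspa1a were Hk2 (Pearson r 0.94), a hexokinase, Nedd9 (0.93), a scaffold of focal adhesions, Rasl11a (0.92), Ggnbp2 (0.92) and Socs3 (0.92), an inhibitor of cytokine signalling, while its neighbour Hspa1b had 0.93. Among the closest to Hsp90aa1 were Hexim1 (0.98), an inhibitor of the elongation kinase P-TEFb, the RNA helicase Ddx5 (0.97), Btg2 (0.96) and the amino acid transporter Slc38a2 (0.95), with Hspa8 and Dnajb1 at 0.95 and Dnaja1 at 0.94. Hspd1 stood apart, with Sf3b4 (0.97), a splicing factor subunit, and then Hnrnpa1 at 0.84, and with Hspe1 at only 0.50. These sums share cells' libraries and classes, so the values are descriptions.

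Barcodes that did not pass the authors' filter (585 and 1675, medians 2404 and 2145 counts) had higher levels of the mitochondrial pair, Hsp90aa1 and Hsph1 than passing cells. Hspd1 was at 75.0 and 92.8 normalized CPM in passing cells and 663 and 915 in barcodes that did not pass. Hspe1 was at 134 and 143 against 991 and 1299, Hsp90aa1 at 194 and 228 against 1187 and 1579, and Hsph1 at 57.8 and 44.4 against 197 and 264. The groups did not overlap for any of these 4, and the share of all genes without overlap was not counted. In that fit (11595 genes) 5 members were higher in barcodes that did not pass and 3 lower, where 69.3% of all genes changed (35.0% higher, 34.3% lower), so that 8 of 10 is near the background.

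The log2 differences were 3.23 (SE 0.18) for Hspd1, 3.04 (SE 0.18) for Hspe1, 2.71 for Hsp90aa1, 2.20 for Hsph1 and 0.49 (adjusted p = 0.0251) for Hspa8. Hspb1, at 143 and 97.5 in passing cells and 43.2 and 43.6 otherwise, was lower by -1.42 (adjusted p = 1.59e-05). Hspa1a (-0.60, adjusted p = 0.00997) and Dnajb1 (-0.50, adjusted p = 0.0124) were lower by less, and neither passed with DESeq2 (adjusted p of 0.142 and 0.0925) or with no count filter. Hspa8 did not pass with DESeq2 either (0.48, adjusted p = 0.0777). Without library 2.1 Hspa1a was at -0.33 (adjusted p = 0.128), and Hspa8 was at 0.28 with Stroma1 alone. With each barcode counted once Dnaja1 also passed as lower (-0.38, adjusted p = 0.0479). Among related lists, 8 of 8 TRiC subunits (median 2.14) and 7 of 8 other mitochondrial genes (median 1.44, led by Hspa9 at 2.24) were higher there, whereas 12 of 16 chaperones of the endoplasmic reticulum (median -1.29) and 21 of 22 immediate-early genes (median -2.49) were lower.

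These barcodes carry markers of other cell types: erythroid markers summed to 13101 and 9764 CPM of raw totals and blood markers to 6838 and 1243. They were divided by a rule chosen after seeing the data, at least 3 counts from 1 marker set alone. In the 277 and 1038 barcodes with the carbonic anhydrases Car1 and Car2, enzymes of red cells, median depth 7524 and 4801 counts, Hspd1 was at 862 and 1043 CPM of raw totals, Hspe1 at 1272 and 1472, Hsp90aa1 at 1509 and 1768 and Hsph1 at 244 and 292, but Hspb1 at 1.49 and 1.43 and Hspa1a at 9.46 and 11.6. They held 97.2% and 96.0% of all Hspd1 counts of the barcodes that did not pass, and 80.4% and 86.6% of their counts of all genes.

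The 83 and 97 barcodes with endothelial markers, which the CD31 sort should remove, had high Hspa1a, Hspa1b and Hspb1 instead. Hspa1a was at 741 and 1178 CPM of raw totals there against 74.7 and 65.6 in passing cells, Hspa1b at 669 and 683, and Hspb1 at 637 and 1931 against 147 and 84.6. Hspd1 was at 39.8 and 70.6, below its 76.6 and 80.5 in passing cells. They held 64.1% and 49.7% of the Hspa1a counts and 69.0% and 84.8% of the Hspb1 counts of the barcodes that did not pass, and 5.02% and 1.97% of their counts of all genes. In Stroma2 a single barcode held 116 of the 246 Hspb1 counts. Since the set was chosen by markers read from the same barcodes, these are levels without a test.

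**Figure D4:**
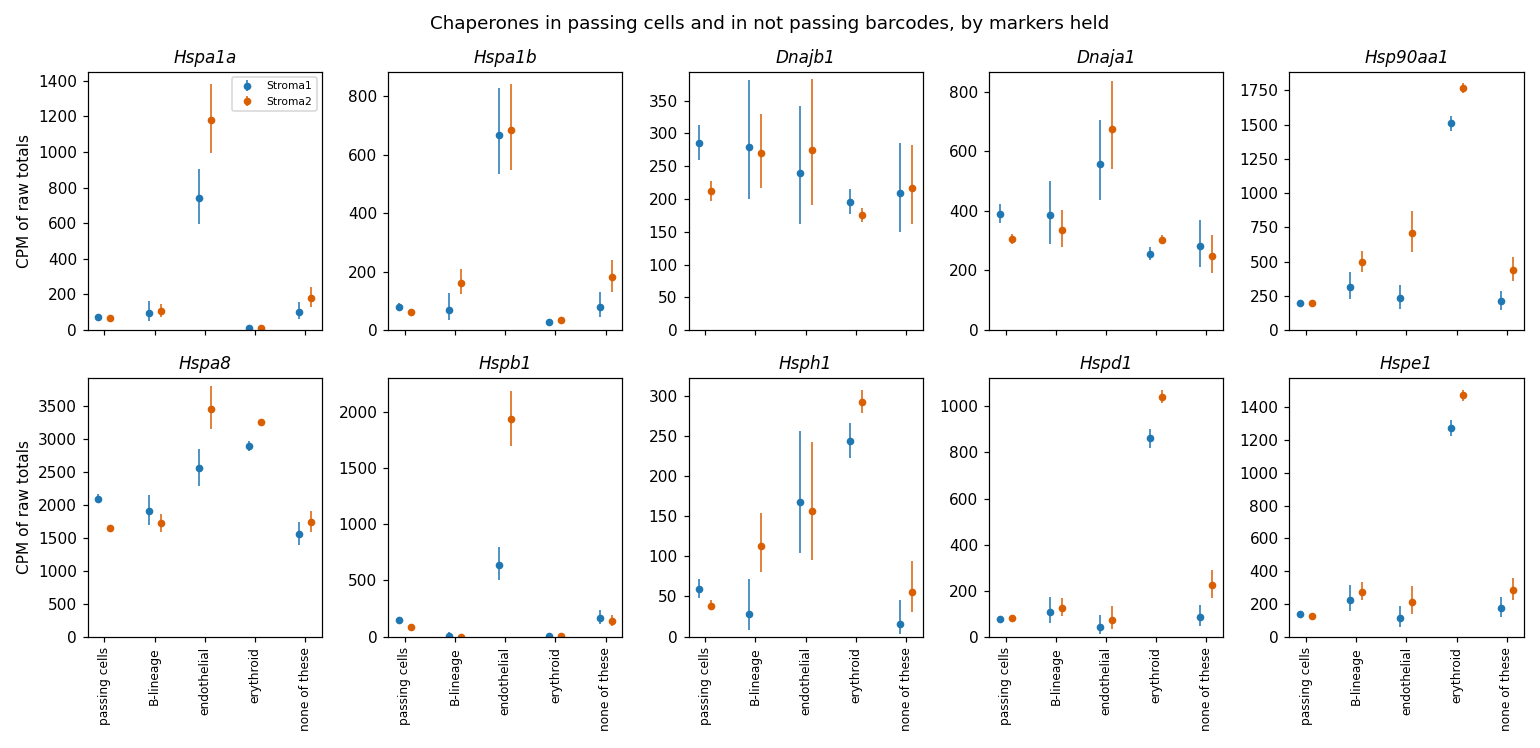
Level of each chaperone (CPM of raw totals, with exact 95% Poisson intervals) in passing cells and in barcodes that did not pass, divided by the markers they hold, with 1 point per sample. Hspd1, Hspe1, Hsp90aa1 and Hsph1 are highest with erythroid markers, and Hspa1a, Hspa1b and Hspb1 with endothelial markers.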

How the data were processed

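The deposited table gives raw counts per gene and barcode, the barcode's total counts and genes, its mitochondrial fraction and the authors' filter, class and path rank (a fraction from 0 to 1), per the file headers. Reads were aligned with Bowtie 1.1.1 to GRCm38, per the submitters' processing notes. No source used here gives the counting tool, the use of molecular identifiers or the annotation. Gene positions come from GENCODE on GRCm38 and promoters from RefSeq.

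Counts were summed per class and sample and fitted with edgeR 4.0.16 in R 4.3.3 (TMM, filterByExpr minimum count 10, quasi-likelihood test, sample as a term, Benjamini-Hochberg adjustment, called at an adjusted p of 0.05). All 10 members passed the count filter in both fits. Passing and not passing barcodes were fitted apart. Standard errors are the log2 difference over the square root of F. No doublet caller was run, and no source used here gives how doublets were treated. The scripts were tested on simulated data. DESeq2 1.42.0 was an alternative. Poisson intervals and shares cover counting error only. The sample numbers pair the sums because each sample gives every class, so the block is in the fit. Members and lists were chosen with earlier results of these data known. All members called in a class are named there, and members that did not pass are named only in part. Of each other list, at most the 3 called genes with the largest log2 change in each direction are named. Of the lists, 1 heat-inducible gene and 1 erythroid marker are not reported here.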

Additional observations from a re-analysis of the deposited data

Results flagged for a closer look

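In Stroma1 590 counts and in Stroma2 3596 counts of the 10 members lay in barcodes with no filter label and under 500 counts, which entered no comparison. These are 1729 and 6687 barcodes. All barcodes with no label had a median mitochondrial share of 89.4% in Stroma1 and 41.8% in Stroma2.

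The Pro-chondrocyte class, too small to test, held 28 counts of Hspa1a and 16 of Hspa1b in the 10 cells of Stroma2, against 1 and 0 in the 4 cells of Stroma1 (2394 and 1368 CPM of raw totals against 226 and 0). One cell of library 2.1 held 20 and 13 of them among its 1048 counts, together with 351 counts of osteoblast markers and 0 of chondrocyte markers.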

How the results depend on the processing

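Of 2401 values of 152 results under alternative settings, 2252 kept their direction and side of the threshold, 99 lost the call, 10 gained it, 5 values called in either fit reversed, and 35 differences called in neither changed sign. With library totals alone, Hspd1 (-0.94) and Hspe1 (-0.065) in Pro-osteoblast against the other classes reversed, as did Hspe1 in Pro-osteoblast against Adipocyte progenitor (-0.063) and Osteoblast progenitor (-0.29). With 1 sample left out, Dnaja1 in Pro-osteoblast against Osteoblast progenitor ranged from -1.15 (without Stroma1) to 0.10 (without Stroma2). With cells thinned to 500 counts, which left 2014 genes to test, members called went from 7 to 4 in MSC, from 4 to 2 in Osteoblast progenitor and from 7 to 0 in Pre-osteoblast/chondrocyte. With 1 library left out the Osteoblast progenitor count ranged from 2 (without 1.2) to 4. DESeq2 called 5 of 8 in not passing barcodes. With no replicate block, the class counts stayed and Hspa8 in not passing barcodes lost its call (0.50, adjusted p = 0.0661), leaving 7. Leaving out a sample gives values with no test.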
